A study of Drosophila melanogaster with 18 samples.

Results

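The 8 genes described here carry dopamine signalling in the fly: the enzymes ple and Ddc, the transporters Vmat and DAT, and the receptors Dop1R1, Dop1R2, Dop2R and DopEcR. They were chosen by gene symbol, as 8 of the 17558 genes in the count table, and no count entered that choice, but the group was put together with earlier results of these data known. The tests below therefore describe each gene and are no independent support for the group. All 8 genes passed the filter on low counts in every comparison.

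Total RNA was measured in adult heads of Δmimi flies and of wild-type flies (w1118), both untreated. Δmimi flies are null mutants, made by a deletion that takes out most of the mimi locus. The long noncoding transcript of mimi belongs to large Staufen-containing ribonucleoprotein granules of neurons. Many flies were pooled and their heads sieved out and ground, so a sample holds brain, eyes, fat body and cuticle, and fewer cells of a type cannot be told apart from less RNA per cell. From each preparation came a granule pellet (granules 1), a pellet that was washed once more (granules 2) and the tissue lysate that both were spun from. The 6 groups were Δmimi granules 1, Δmimi granules 2, Δmimi lysate and the same 3 fractions of wild type, each with 3 libraries from 3 preparations. The age of the flies in these preparations was not stated in the sources used here.

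Dopamine is made from tyrosine by tyrosine hydroxylase, the product of ple, and dopa decarboxylase, the product of Ddc. Vmat loads it into synaptic vesicles and DAT takes it back up after release. Dop1R1 and Dop1R2 are D1-like receptors that raise cAMP, Dop2R is the D2-like receptor that lowers it, and DopEcR responds to dopamine and to ecdysteroids. In the fly head dopamine serves arousal, learning and memory, and the same pair of enzymes also acts in epidermis, where dopamine is a precursor of the compounds that tan the cuticle.

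Total counts ranged from 3635256 to 7798946 per library, and the 8 genes together took between 0.0798% and 0.158% of them. The deleted gene matched the labels, with 30 to 113 counts of mimi in the 9 Δmimi libraries, against 7090 to 18379 in the 9 wild-type libraries. Markers of neurons, glia, photoreceptors and fat body were detected in all 18 libraries. Germline markers also summed to 149 to 319 CPM, so detection alone does not tell heads from other tissue. Levels are CPM, the counts relative to a library size after TMM scaling, given as mean ± SD over 3 libraries. edgeR's quasi-likelihood test was fitted to the counts of all genes with a base mean above 10, and p-values were adjusted over all of them. Called genes had adjusted p-values below 0.05 together with log2 fold changes beyond 0.5 in either direction.

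In the BDGP6 assembly all 8 genes lie on the minus strand. The enzyme genes are ple (FBgn0005626, 3L:6713356-6719525) and Ddc (FBgn0000422, 2L:19116483-19120306), and the transporter genes are Vmat (FBgn0260964, 2R:13513132-13534251) and DAT (FBgn0034136, 2R:16558567-16565238). The receptor genes other than Dop2R are Dop1R1 (FBgn0011582, 3R:14165379-14214810), Dop1R2 (FBgn0266137, 3R:29630304-29659984) and DopEcR (FBgn0035538, 3L:4367649-4380387). Their exons span from 2797 bases in Ddc to 14565 bases in Dop1R1.

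Levels per kilobase of exon differed widely among the 8 genes in wild-type lysate. Dop2R was highest with 56.0 ± 6.67 CPM per kb and did not overlap with Ddc, which came next with 45.9 ± 4.08. Ddc, ple (34.9 ± 19.0) and Vmat (34.4 ± 3.73) overlapped as neighbours in this order. DopEcR (21.6 ± 5.36) and DAT (16.6 ± 2.36) overlapped with each other and lay below Vmat. The D1-like receptors were lowest, with 5.91 ± 0.843 CPM per kb for Dop1R2 and 3.75 ± 0.623 for Dop1R1, and these did not overlap. In Δmimi lysate the first 3 places were taken by ple (53.2 ± 42.0), Dop2R (47.2 ± 12.3) and Ddc (45.3 ± 6.81), whose libraries overlapped as neighbours, and the order of the other 5 genes was that of wild type.

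The place of Dop2R in this order differed by fraction and by genotype. In granules 1 it ranked 4 of 8 in Δmimi, at 26.7 ± 6.38 CPM per kb, and 1 of 8 in wild type, at 103 ± 13.0 CPM per kb. In granules 2 it again ranked 4 in Δmimi (25.8 ± 5.59) and 1 in wild type (100.8 ± 12.9). The gene (FBgn0053517) lies on the minus strand of chromosome X, at X:20004680-20062706 in the BDGP6 assembly, with 6530 exonic bases in 13 exon blocks. No exon of another counted gene overlapped these exons. The 5 counted neighbours in or beside the locus had between 0 and 5 counts in any library.

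In granules 1, Dop2R had 205, 191 and 127 CPM in Δmimi replicates 1 to 3, against 733, 716 and 579 CPM in wild-type replicates 1 to 3. In granules 2 it had 191, 188 and 126 CPM in Δmimi, against 691, 721 and 562 CPM in wild type. Every wild-type granule library was thus above every Δmimi granule library. The share of all genes whose granule libraries separate by genotype was not counted. In lysate the genotypes overlapped for Dop2R, with 399.5, 277 and 248 CPM in Δmimi, against 416, 342 and 339 CPM in wild type.

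**Figure D1:**
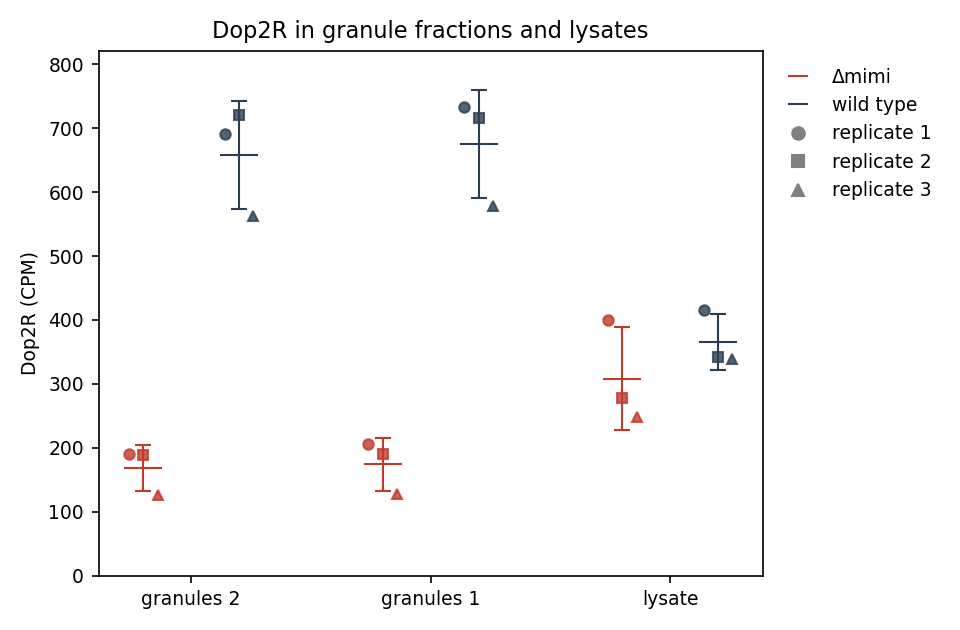
Dop2R in CPM (vertical axis) in granules 2, granules 1 and lysate, with Δmimi left of wild type in each fraction. Symbols are single libraries by replicate number, and bars are the mean and SD of 3 libraries. Δmimi granules sit between 126 and 205 CPM, wild-type granules between 562 and 733 CPM, and the lysates of the genotypes overlap.

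Compared between the genotypes within a fraction, Dop2R fell in Δmimi granules by 1.94 on the log2 scale in granules 1 (SE 0.198, adjusted p = 0.00196) and by 1.96 in granules 2 (SE 0.191, adjusted p = 0.00159). The same-number ratios of Δmimi over wild type were 0.280, 0.267 and 0.220 in granules 1 and 0.276, 0.261 and 0.224 in granules 2. Dop2R was the only one of the 8 genes called in either comparison, where 5.75% and 5.24% of all genes tested were called. In lysate the log2 fold change was -0.25 (SE 0.205, adjusted p = 0.684). The calls in granules held when any single library of the comparison was left out, with log2 fold changes of -2.07 to -1.74 for granules 1 and -2.07 to -1.79 for granules 2. With the replicate number as a block they were -1.96 (adjusted p = 4.07e-06) and -1.97 (adjusted p = 1.86e-09).

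Within wild type, Dop2R was enriched in granules. It rose by 0.87 on the log2 scale in granules 1 over lysate (SE 0.147, adjusted p = 0.0131) and by 0.85 in granules 2 over lysate (SE 0.147, adjusted p = 0.0122). The preparations gave 1.76, 2.09 and 1.71-fold in granules 1 and 1.66, 2.11 and 1.66-fold in granules 2. These were the only calls among the 8 genes, against 8.17% of all genes called in granules 1 and 9.49% in granules 2. Both calls were lost without wild-type preparation 1 (log2 fold changes 0.91 and 0.91, adjusted p = 0.0943 and 0.0771) or without wild-type preparation 3 (0.92 and 0.88, adjusted p = 0.191 and 0.158). Each of these fits had 2 preparations left. With the preparation as a block Dop2R was called in both, at 0.87 (SE 0.0855, adjusted p = 1.01e-05) and 0.85 (SE 0.0918, adjusted p = 9.55e-07). The blocked fits called 16.7% of all genes in granules 1 and 18% in granules 2.

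Within Δmimi, the values of Dop2R had the opposite sign. Its log2 fold change was -0.83 in granules 1 over lysate (SE 0.238, adjusted p = 0.0913) and -0.87 in granules 2 over lysate (SE 0.237, adjusted p = 0.0831). The libraries of Dop2R did not overlap in either comparison, nor did those of Ddc in granules 1 and of DAT in granules 2. The share of all genes without overlap was not counted for granules over lysate. For Dop2R the preparations gave 0.514, 0.689 and 0.512-fold in granules 1 and 0.477, 0.679 and 0.508-fold in granules 2. None of the 8 genes was called here by edgeR, where 4.65% and 4.32% of all genes were called. At an unadjusted p under 0.05 there were 1 (Dop2R) in granules 1 and 2 (Dop2R and DAT) in granules 2. Over all genes these were 2246 of 9732 and 2202 of 9762. DESeq2 called 1 of the 8 in each, which was Dop2R. Over all genes DESeq2 called 372 higher and 297 lower of 9529 in granules 1, and 364 higher and 314 lower of 8996 in granules 2. Granules and lysate of one number come from one preparation. With that number as a block Dop2R was called in both comparisons, with log2 fold changes of -0.83 (SE 0.0809, adjusted p = 7.15e-08) and -0.86 (SE 0.0731, adjusted p = 1.60e-13). The blocked fits called 14.2% and 14.8% of all genes, and no other gene of the 8.

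**Figure D2:**
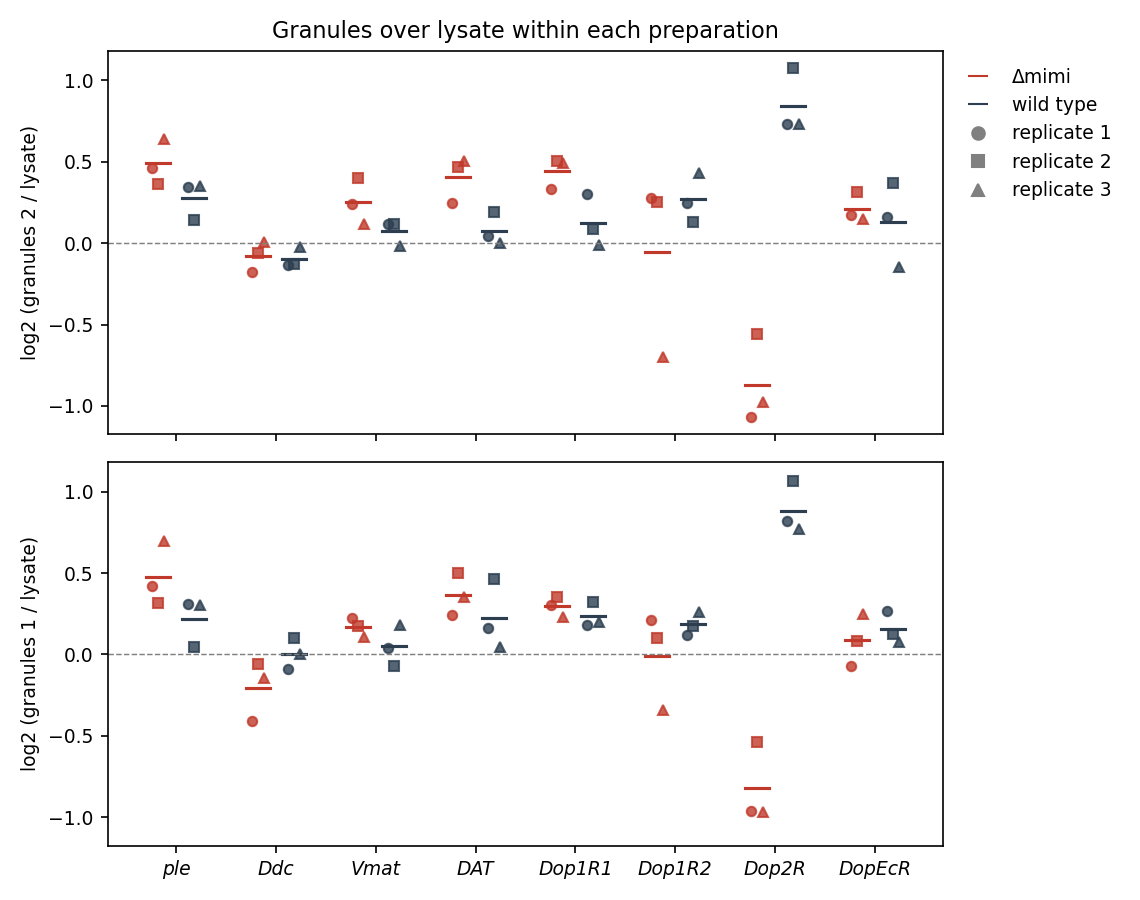
The log2 ratio of granules over lysate within each preparation (vertical axis) for the 8 dopamine genes (horizontal axis), for granules 2 above and granules 1 below, with Δmimi left of wild type. Symbols are preparations by replicate number and lines are means of 3. For Dop2R all 6 wild-type ratios lie above 0.73 and all 6 Δmimi ratios below -0.53, and no other gene of the 8 separates in this way.

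The genotype difference in enrichment was tested directly as an interaction (Δmimi minus wild type) in the 12 libraries of a granule fraction and the lysates. For Dop2R it was -1.68 on the log2 scale in granules 1 (SE 0.297, unadjusted p = 0.000122) and -1.71 in granules 2 (SE 0.288, unadjusted p = 8.05e-05). Without a block neither passed after adjustment over all genes (adjusted p = 0.56 and 0.391), although Dop2R ranked 2 by p-value among all genes tested in each fraction. At these settings 1 gene, 0.0102% of those tested, was called in granules 1, and 0% were called in granules 2. By unadjusted p 255 and 229 genes were under 0.05, and DESeq2 called 1 gene higher and 13 lower in granules 1 and 1 higher and 9 lower in granules 2, Dop2R among them in both. With each preparation as a block, Dop2R ranked 1 by p-value and was called in both fractions. The blocked differences were -1.68 (SE 0.129, adjusted p = 2.84e-05) and -1.71 (SE 0.126, adjusted p = 6.55e-07), where 0.358% and 0.463% of all genes were called. Genes that lay above the lysate in every wild-type preparation and below it in every Δmimi preparation were 0.706% of those tested in granules 1 and 0.535% in granules 2, and Dop2R was among them in both.

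The study classed an RNA as a component of mimi granules if it met one of a pair of conditions in both granule fractions. Its log2 enrichment had to be higher in wild type than in Δmimi by more than 0.5, or it had to be enriched with a significant p in wild type and not in Δmimi. Applied to the fits here, with adjusted p-values and with the difference taken as wild type minus Δmimi, 3.76% of 9411 genes met that rule. Of the 8 genes Dop2R alone met it, with differences of 1.70 in granules 1 and 1.72 in granules 2 on the log2 scale. For the other 7 genes the differences lay between -0.25 and 0.21 (granules 1) or between -0.32 and 0.27 (granules 2). The rule and the interaction use the same libraries as the values above.

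None of the other receptors was called in granules over lysate in either genotype. Dop1R1, the D1-like receptor known from olfactory learning, had log2 fold changes of granules 1 over lysate of 0.29 in Δmimi (SE 0.232) and 0.22 in wild type (SE 0.152). In granules 2 these were 0.43 (SE 0.216) and 0.15 (SE 0.207) for Δmimi and wild type. Over all alternative settings, the Δmimi values of Dop1R1 went down to 0.0087 in granules 1 and 0.098 in granules 2. Leaving out single preparations gave only 0.26 to 0.32 and 0.40 to 0.48, so other settings gave these low values. Dop1R2, known from forgetting, had -0.01 in Δmimi granules 1 (SE 0.179) and 0.17 in wild-type granules 1 (SE 0.150). Its Δmimi preparations disagreed in granules 2, with 1.21, 1.19 and 0.615-fold, against 1.18, 1.096 and 1.35-fold in wild type, so that preparation 3 alone lay below its lysate. DopEcR had 0.04 in Δmimi granules 1 (SE 0.312) and 0.16 in wild-type granules 1 (SE 0.255), and its SEs exceeded the values in granules 2 as well.

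Among the enzymes and transporters, no granule enrichment was called in either genotype. Ddc had log2 fold changes of -0.22 in Δmimi granules 1 (SE 0.127) and -0.01 in wild-type granules 1 (SE 0.118). Vmat had 0.17 (SE 0.183) and 0.04 (SE 0.136) in Δmimi and wild type. DAT had 0.37 (SE 0.191) in Δmimi and 0.24 (SE 0.219) in wild type in granules 1, and 0.41 (SE 0.167) and 0.10 (SE 0.179) in granules 2. For ple the values in granules 1 were 0.41 (SE 0.615) in Δmimi and 0.15 (SE 0.417) in wild type. All 12 ratios of ple within preparations were above 1, from 1.25 to 1.62-fold in Δmimi and from 1.03 to 1.27-fold in wild type. These ratios come from 6 preparations, each lysate serving both fractions, and the share of all genes with such ratios was not counted. Over the 8 genes the median log2 fold change in granules 1 was 0.11 in Δmimi and 0.16 in wild type, against medians of -0.03 and -0.04 over all genes tested. These medians are without a correction for exon length. By exon length the 8 genes lie between percentiles 77.5 and 99.6 of all genes, and the part of length in the medians was not tested. With the preparation as a block, ple, DAT and Dop1R1 had adjusted p-values under 0.05 in both Δmimi comparisons (ple 4.85e-05 and 1.08e-07, DAT 0.00539 and 0.000349, Dop1R1 0.0173 and 8.22e-05) but log2 fold changes below 0.5, and stayed uncalled. The same held in 1 Δmimi comparison each for Ddc (granules 1, -0.22, adjusted p = 0.0366), Vmat (granules 2, 0.26, adjusted p = 0.00125) and DopEcR (granules 2, 0.22, adjusted p = 0.0163). In wild type it held for ple in granules 2 (0.28, adjusted p = 0.0157). Adjusted p-values under 0.05 were common among all genes in these blocked fits. By p-value Ddc ranked 3145 of 9732 genes, DopEcR 3075 of 9762 and ple in wild type 2538 of 9583. The Δmimi values of Dop1R1 were much lower in other settings, as given above.

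In lysate, the question was whether the dopamine genes differ in level between Δmimi and wild-type heads. None of the 8 was called by edgeR, where 1.64% of all genes were called. DESeq2 called 0 of the 8 as well. In edgeR 2 of the 8, Vmat and DAT, had an unadjusted p under 0.05, as had 1358 of all 9770 genes tested. The log2 fold change was below 0 for 7 of 8 genes, with a median of -0.30, against -0.01 over all genes tested, of which 48.7% were above 0. The exception was ple. Vmat, DAT and Dop1R2 had libraries that did not overlap between the genotypes, as had 19.1% of all genes tested.

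Among these, Vmat had 249, 196 and 181 CPM in Δmimi lysates, against 314, 267 and 258 CPM in wild-type lysates, a log2 fold change of -0.43 (SE 0.161, adjusted p = 0.289). DAT had 37.8, 42.9 and 31.6 CPM in Δmimi, against 49.1, 58.1 and 43.9 CPM in wild type, with -0.43 (SE 0.163, adjusted p = 0.284). Dop1R2 had 25.3, 20.4 and 26.1 CPM in Δmimi, against 35.5, 27.5 and 28.5 CPM in wild type, with -0.36 (SE 0.160, adjusted p = 0.387). In each of these the highest Δmimi lysate stayed below the lowest wild-type lysate. Reads of Vmat could be mixed with those of CG13330, which overlaps 2129 of its exonic bases on the other strand, and CG13330 had 0 to 6 counts in a library. Reads of Ddc could be mixed over 88 exonic bases with those of CG10561 on the other strand, which had 141 to 437 counts.

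Dop1R1 had 53.4, 34.5 and 36.5 CPM in Δmimi lysates, against 63.6, 45.4 and 54.9 CPM in wild-type lysates, and the genotypes overlapped (log2 fold change -0.40, SE 0.213, adjusted p = 0.476). Every same-number ratio of Dop1R1 was nevertheless below 1, at 0.840, 0.759 and 0.664. Ddc had 149, 117 and 114 CPM in Δmimi, against 139, 130.3 and 116 CPM in wild type, with a log2 fold change of -0.02 (SE 0.142). DopEcR had 128, 74.4 and 60.1 CPM in Δmimi, against 114, 68.0 and 96.1 CPM in wild type, with -0.08 (SE 0.309). The sign differed between the numbers for Ddc and for DopEcR.

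Libraries of one replicate number deviated together in both genotypes. With that number as a block, ple, Vmat, DAT and Dop1R1 had an adjusted p under 0.05 in lysate (0.0141, 0.00248, 0.00817 and 0.0158), and none of the 8 was called because their log2 fold changes (0.48, -0.43, -0.43 and -0.41) did not pass 0.5. The blocked fit called 9.48% of all genes. By p-value Dop1R1 ranked 954 of 9770 genes there, so at least that many genes passed the same adjusted p. All 9 neuron markers tested were below 0 in the same comparison, with a median log2 fold change of -0.22 and none called, and their summed level was 2639 to 3958 CPM in Δmimi lysates, against 3092 to 4523 CPM in wild-type lysates. Of 8 glia markers 7 were below 0, with a median of -0.11, a summed level of 2242 to 3013 CPM in Δmimi lysates, against 2444 to 3077 CPM in wild-type lysates, and none called. With the block the glia marker repo was called lower (-0.51, adjusted p = 0.00141). The part of neuron and glia content in the lower transporter and receptor values was not tested.

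**Figure D3:**
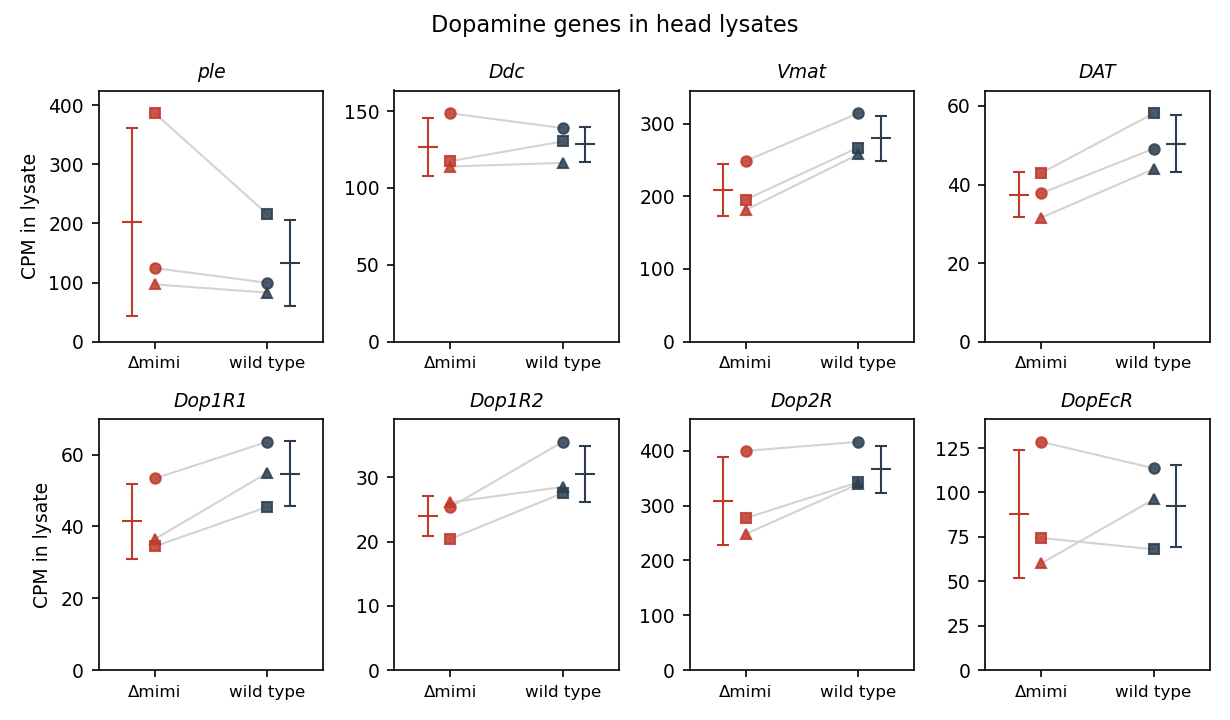
CPM in lysate (vertical axes, each from 0) of the 8 dopamine genes, with Δmimi left of wild type. Symbols are libraries (circle, square and triangle for replicates 1 to 3), grey lines join libraries of one number, and bars beside them are the mean and SD of 3. Vmat, DAT and Dop1R2 do not overlap between the genotypes, and replicate 2 stands above the others for ple.

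Tyrosine hydroxylase was the member with the largest spread between preparations. In lysate ple had 124, 386 and 96.8 CPM in Δmimi replicates 1 to 3, against 99.6, 216 and 83.0 CPM in wild-type replicates 1 to 3. In granules 1 it had 167, 481 and 157 CPM in Δmimi, against 123, 223 and 102 CPM in wild type. Replicate 2 was highest in every group, and every same-number ratio of Δmimi over wild type was above 1, from 1.17 to 2.16 over the 9 pairs of libraries. The summed level of 6 epidermis and cuticle markers was highest in replicate 2 too, with 384, 860 and 387 CPM in Δmimi lysates, against 336, 720 and 334 CPM in wild-type lysates, and its part in the level of ple was not tested.

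The log2 fold change of ple in lysate was 0.60 (SE 0.567, adjusted p = 0.742), and it was -0.26 without Δmimi lysate replicate 2. In granules it was 0.86 in granules 1 (SE 0.484, adjusted p = 0.382) and 0.80 in granules 2 (SE 0.487, adjusted p = 0.446). With the replicate number as a block ple was called higher in both granule fractions, at 0.74 (SE 0.126, adjusted p = 0.00426) and 0.70 (SE 0.102, adjusted p = 0.000246). Without the block and without Δmimi replicate 2 of the fraction, ple was at 0.13 in granules 1 and at 0.054 in granules 2.

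Dop1R2 was the other gene that the block added in granules. It had 29.3, 21.9 and 20.6 CPM in Δmimi granules 1, against 38.6, 31.1 and 34.1 CPM in wild-type granules 1, which did not overlap. The libraries of Dop2R and Ddc did not overlap there either, and the share of all genes without overlap was not counted for granules. The log2 fold change of Dop1R2 was -0.52 in granules 1 (SE 0.166, adjusted p = 0.128) and -0.61 in granules 2 (SE 0.241, adjusted p = 0.228). With the block these were -0.52 (SE 0.117, adjusted p = 0.0154) and -0.61 (SE 0.151, adjusted p = 0.011), so that Dop2R, Dop1R2 and ple were called among 10.5% and 11.2% of all genes. The interaction of Dop1R2 was -0.15 in granules 1 (SE 0.232) and -0.26 in granules 2 (SE 0.309), and it was not called with or without the block (blocked adjusted p = 0.924 and 0.917).

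**Figure D4:**
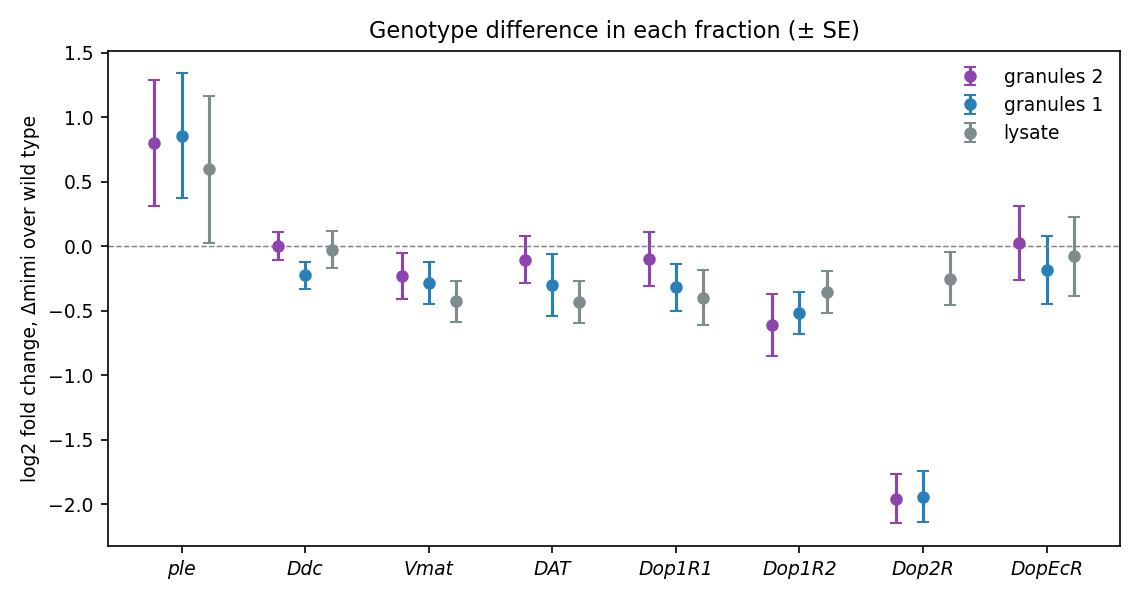
The log2 fold change of Δmimi over wild type (vertical axis) with its SE for the 8 dopamine genes, in granules 2, granules 1 and lysate from left to right for each gene. Dop2R is at -1.96 and -1.94 in the granules and at -0.25 in lysate, and no other gene lies below -0.61.

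No effect of washing the pellet was called for any of the 8 genes with or without a block. Their log2 fold changes of granules 2 over granules 1 ran from -0.05 to 0.17 in Δmimi and from -0.15 to 0.10 in wild type. For Dop2R they were -0.05 (SE 0.224) and -0.03 (SE 0.149). With edgeR 0% of all genes were called in Δmimi and 0% in wild type, 55 and 97 genes had an unadjusted p under 0.05, and DESeq2 called 0 genes in both. With the preparation as a block 0.0205% were called in Δmimi and 0% in wild type, and 501 and 331 genes had an unadjusted p under 0.05, with Ddc and DopEcR among those of Δmimi. The 2 genes called in Δmimi, both lower in granules 2, were the ribosomal RNA pseudogene 28SrRNA-Psi:CR40596 and FBgn0085799, which has no symbol here. Both pellets of a preparation came from one lysate, so granules 1 and granules 2 are not independent measures of an enrichment.

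Genes that supply the pathway were looked at as lists. Of 7 genes for tyrosine and for the cofactor tetrahydrobiopterin, which tyrosine hydroxylase needs, 3 were enriched in granules of both genotypes and fractions and none was depleted. These were Pu, the GTP cyclohydrolase that opens cofactor synthesis, pr, the pyruvoyl tetrahydropterin synthase that follows it, and Hn, the hydroxylase that makes tyrosine from phenylalanine. In granules 1 over lysate, Pu rose by 2.54 in Δmimi (SE 0.180, adjusted p = 0.000701) and by 2.70 in wild type (SE 0.178, adjusted p = 0.000219). pr rose by 2.21 in Δmimi (SE 0.196, adjusted p = 0.00179) and by 2.71 in wild type (SE 0.136, adjusted p = 0.000121), and Hn by 1.02 (SE 0.114, adjusted p = 0.00386) and 0.97 (SE 0.143, adjusted p = 0.0075). The list's median was 0.10 in Δmimi and 0.23 in wild type, against -0.03 and -0.04 over all genes tested. Leaving out single preparations ended the Δmimi calls in granules 1 of pr without preparation 1 (2.18, adjusted p = 0.0519) or 3 (2.01, adjusted p = 0.0513), of Pu without preparation 3 (2.42, adjusted p = 0.0518) and of Hn without preparation 1 (0.996, adjusted p = 0.0747) or 3 (1.05, adjusted p = 0.105). In wild type it ended those of Hn without preparation 1 (0.88, adjusted p = 0.0707) or 3 (0.95, adjusted p = 0.208). In granules 2 the same omissions ended the Δmimi calls of pr (adjusted p = 0.0552 and 0.0615), Pu (adjusted p = 0.0615) and Hn (adjusted p = 0.142 and 0.138). For wild-type granules 2, Hn lost its call without preparation 3 (adjusted p = 0.152). These refits had no block. With the preparation as a block all 3 genes were called in both genotypes and both fractions. In Δmimi granules 1 the blocked values were 2.55 for Pu (adjusted p = 2.39e-14), 2.22 for pr (adjusted p = 2.13e-12) and 1.02 for Hn (adjusted p = 1.22e-10). That blocked fit called 14.2% of all genes.

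The levels of Pu and pr in granules were lower in Δmimi. Pu had 3377, 2914 and 3167 CPM in Δmimi granules 1, against 4927, 4878 and 5119 CPM in wild-type granules 1. pr had 589, 481 and 562 CPM, against 1123, 1079 and 1245 CPM. Pcd, the dehydratase that recycles the cofactor, had 34.4, 29.5 and 35.5 CPM, against 47.1, 52.4 and 44.5 CPM. For these 3 genes no Δmimi granule library reached the lowest wild-type one. The share of all genes of which this holds was not counted, and the 3 were named because they were called in these libraries.

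In granules 1 these 3 of the 7 genes fell in Δmimi relative to wild type, by 0.65 for Pu (SE 0.107, adjusted p = 0.0138), by 1.07 for pr (SE 0.116, adjusted p = 0.00257) and by 0.52 for Pcd (SE 0.119, adjusted p = 0.0453), and in granules 2 by 0.62, 0.99 and 0.55. Of the 6 settings that leave out one library, Pu was lost in 3 in granules 1 and in all 6 in granules 2, Pcd in all 6 in both, and pr in none. Pcd in granules 1 was also lost in 4 of the other 7 settings, which were RLE scaling (adjusted p = 0.0502), no filter on low counts (adjusted p = 0.0501) and length correction without and with the block (-0.46 and -0.47). In lysate none of the 7 was called, with a median of -0.41, and with the replicate number as a block pr alone was called lower (-0.59, SE 0.0993, adjusted p = 0.00273). No interaction was called for any of the 7, and for pr it was -0.48 in granules 1 (SE 0.235) and -0.42 in granules 2 (SE 0.248). The cofactor genes also serve the eye pigments of the fly, and these libraries do not tell the tissues apart.

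**Figure D5:**
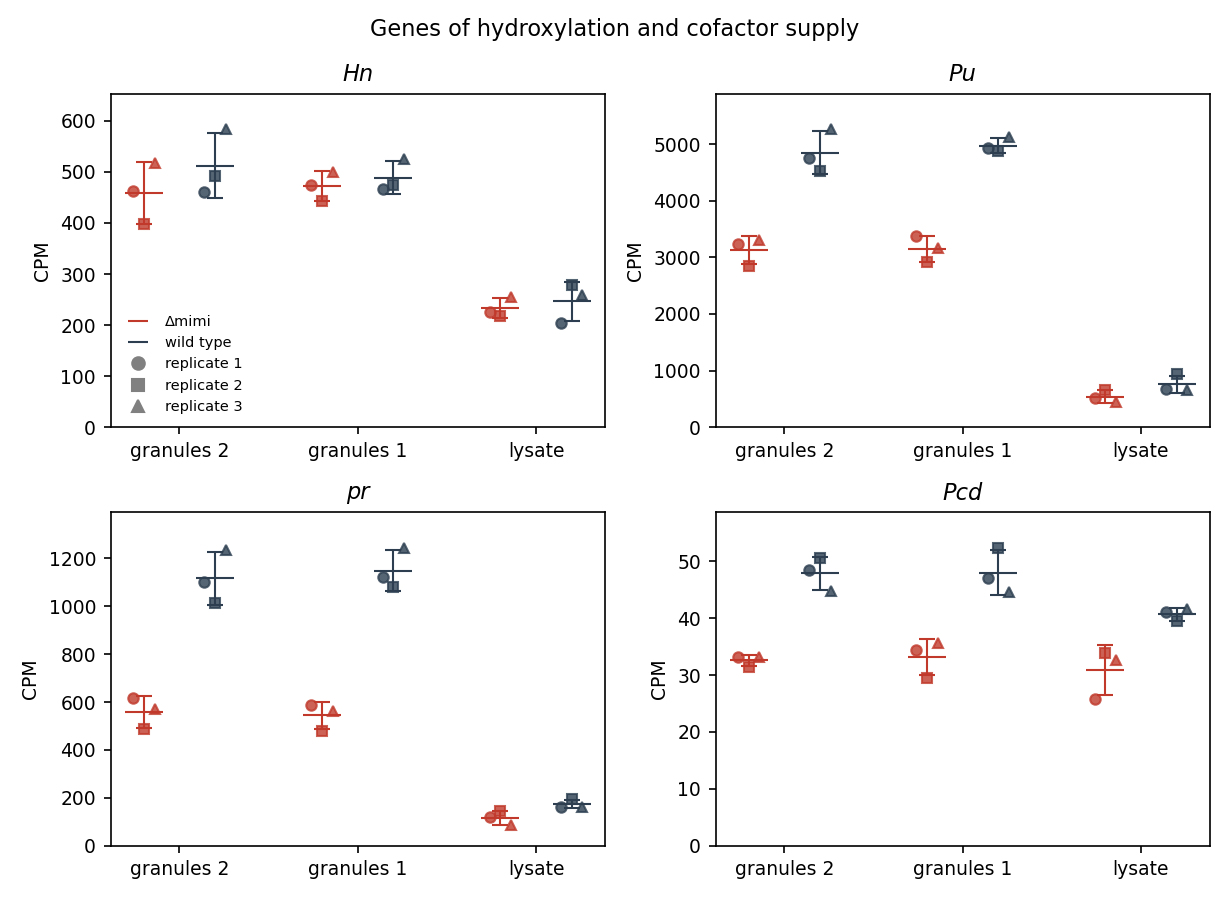
CPM (vertical axes, each from 0) of Hn, Pu, pr and Pcd in granules 2, granules 1 and lysate, with Δmimi left of wild type. Symbols are libraries by replicate number and bars are the mean and SD of 3. Hn, Pu and pr stand higher in granules than in lysate in both genotypes, and Pu, pr and Pcd lower in Δmimi granules than in wild-type granules.

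Of 8 genes for the conversion of dopamine and for tanning, AANATL2, an arylalkylamine N-acetyltransferase, was enriched in granules of both genotypes. It rose by 0.97 in Δmimi granules 1 (SE 0.196, adjusted p = 0.037) and by 1.04 in wild-type granules 1 (SE 0.253, adjusted p = 0.0444), and none of the list fell. These calls of AANATL2 were lost without wild-type preparation 1 or 3 (adjusted p = 0.233 and 0.414) or without any 1 Δmimi preparation (adjusted p = 0.139, 0.056 and 0.322). These refits had no block. With the preparation as a block AANATL2 was called at 0.99 in Δmimi (adjusted p = 1.27e-05) and 1.02 in wild type (adjusted p = 0.00319). Of 6 enzymes and transporters of other monoamines none was called in any comparison between granules and lysate or between genotypes without a block. The block added Trhn, the neuronal tryptophan hydroxylase of serotonin synthesis, as lower in Δmimi than in wild type, with log2 fold changes of -0.73 in lysate (adjusted p = 0.00966), -0.84 in granules 1 (adjusted p = 0.00873) and -0.55 in granules 2 (adjusted p = 0.0463). AANATL2 was higher in Δmimi with the block, by 0.57 in lysate (adjusted p = 0.0291) and by 0.53 in granules 1 (adjusted p = 0.0469). In wild-type granules over lysate the block added yellow-f2, a dopachrome conversion enzyme, as higher (0.63 and 0.54, adjusted p = 0.000306 and 0.000854), and in granules 1 prt, a gene related to vesicular monoamine transporters, as lower (-0.62, adjusted p = 0.0124). Of 17 genes of signalling downstream of the receptors, among them G protein subunits and protein kinase A, scrib, a scaffold protein of cell polarity, was called in Δmimi granules 1 (0.52, SE 0.114, adjusted p = 0.0448) and granules 2 (0.53, SE 0.116, adjusted p = 0.0494). Both calls of scrib were lost when any 1 preparation was left out, without the filter on low counts, and with a correction for exon length, which gave 0.22 and 0.17. No gene of the 17 was called between the genotypes in lysate or granules.

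Across all 18 libraries, the members fell apart in how they varied. Vmat and Dop1R1 were the pair with the highest correlation of log2 CPM (r = 0.86), followed by Vmat and Dop1R2 (r = 0.82) and Dop1R1 and DopEcR (r = 0.81). ple correlated negatively with all members but DAT (r = 0.52). Dop2R was closest to Dop1R2 (r = 0.79). These are descriptions over libraries that share preparations, fractions and genotypes, so the points are not independent.

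Among 8582 genes with a mean of at least 5 CPM, those most like Dop2R were CG32052 (r = 0.95), Tmtc1 (r = 0.93) and CCKLR-17D3 (r = 0.93). CG32052 averaged 20.7 CPM in granules 1 and 18.3 in granules 2 of Δmimi over a lysate of 24.0, against 63.9 and 58.3 CPM over a lysate of 42.6 in wild type. For ple they were Cda5, Mmp1 and Cpr47Ef (r = 0.97, 0.97 and 0.96), for DopEcR CG34384, Appl and mei-P26 (r = 0.97, 0.96 and 0.96) and for Vmat nAChRbeta1, beat-VII and Ca-alpha1T (r = 0.95 each). Dop1R1 was closest to RhoGAP100F, Octalpha2R and Tehao (r = 0.94, 0.93 and 0.93). Dop1R2 was closest to Liprin-gamma, unc79 and GstE2 (r = 0.90, 0.89 and 0.89) and DAT to Men, Pxn and Nna1 (r = 0.91, 0.88 and 0.88). Ddc had the weakest likeness, with CG7368, fwe and TrissinR at r = 0.84, 0.81 and 0.80.

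Markers of other tissues also moved with genotype. Of the fat body markers, to was called higher in Δmimi lysate, and 6 of 6 germline markers tested were above 0 there, with a median log2 fold change of 2.19 and none called. With the replicate number as a block, 4 of the 6 were called higher in lysate as well, bcd by 2.57 (adjusted p = 0.00343), nanos by 2.10 (adjusted p = 0.000399), osk by 2.15 (adjusted p = 0.00021) and otu by 2.82 (adjusted p = 0.000235), as was Lsp2 of the fat body by 0.58 (adjusted p = 0.0429). In granules the same 4 germline markers were called higher in both fractions without the block. The germline markers summed to 221 to 279 CPM in Δmimi lysates, against 169 to 190 CPM in wild-type lysates. In granules 1 the neuron markers had a median of -0.04 between the genotypes, from -0.42 to 0.23 with none called. Their summed level was 2480 to 3252 CPM in Δmimi, against 3035 to 3818 CPM in wild type. The 8 glia markers were all below 0 in both granule fractions, with medians of -0.22 in granules 1 and -0.17 in granules 2 and none called, and in granules 1 they summed to 2767 to 3121 CPM in Δmimi, against 3183 to 3509 CPM in wild type. With the block the glia marker wrapper was called lower in granules 2 (-0.51, adjusted p = 0.00302). The part of these tissues in the members' values was not tested.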

How the data were processed

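The authors mapped stranded, ribosome-depleted total RNA libraries to dm6 with STAR and counted reads per gene with featureCounts and the Ensembl 96 annotation in snakePipes, and they deposited whole-number counts without normalization. Versions and the strand setting were not given in the sources used here. The authors' tables of fold changes and p-values were not used. Names, positions and exon lengths came from Ensembl 115 by identifier (17252 of 17558 genes matched).

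The members and gene lists were chosen with earlier results of these data known. Counts of the compared groups were scaled by TMM over genes with at least 1 count, filtered at a base mean above 10 and fitted with edgeR 4.0.16 (R 4.3.3, no covariate, two-sided, Benjamini-Hochberg adjustment). Each SE was derived from the log2 fold change and the square root of its F statistic. The scripts were tested on simulated counts. Alternatives were RLE scaling, DESeq2 1.42.0 (the tool of the study), base mean filters of 0 and 50, the replicate block, an exon length correction, and leaving out libraries. For named genes, all 8 members were taken in every comparison (the alternatives of the wash comparison were given for Dop2R alone, and those of members between genotypes in granules were chosen after seeing the data), at most 4 called genes of a pathway list, marker genes only if called, and the 3 genes most correlated with each member.

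Same-numbered samples paired: their deviations from the group means correlated at 0.272 to 0.761 in all 9 comparisons of groups, and granules and lysate of one number come from one preparation, per the labels and methods. Differently numbered samples reached at most 0.216. Between the genotypes the pairing was weakest for replicate 3, at 0.300 in lysate, 0.272 in granules 1 and 0.340 in granules 2. Replicates of a group differed by more than counting noise (chi-square over degrees of freedom of 5.77 or more). Nothing states separate cultures of flies, so p-values without a block measure the spread between these preparations. With a block they measure only the spread left after differences between the numbers or preparations are taken out. Few libraries inform that spread in a gene, so the blocked p-values lean on the variance that edgeR shares across genes. Precision also depends on depth, and since no molecular identifiers were used, reads may not be separate molecules.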

Additional observations from a re-analysis of the deposited data

Results flagged for a closer look

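Dop2R stood out because its enrichment in granules had opposite directions in the genotypes. Every wild-type preparation was above its lysate and every Δmimi preparation below it, and the difference of Δmimi minus wild type was -1.68 in granules 1 and -1.71 in granules 2 on the log2 scale. Without a block the difference did not pass adjustment over all genes, and with preparations as a block it did in both fractions (edgeR, adjusted p = 2.84e-05 and 6.55e-07). Both fractions share their lysates.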

How the results depend on the processing

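Of 860 refits of 74 log2 fold changes (8 members in 9 comparisons, and Dop2R alone for the wash), 785 kept direction and side of the threshold, 4 lost a call, 24 gained one and 47 changed sign, none of the 47 of a called gene. The cause of these changes was not tested.

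Members called changed as follows. With the replicate block and with DESeq2, Δmimi granules 1 and granules 2 over lysate and both interactions went to 1 called gene, and the block gave 3 in granules 1 and 3 in granules 2 between the genotypes. The block changed no other count of members called, and the direction of Dop2R was kept by it throughout. Length correction alone gave 1 in Δmimi granules 1, 1 in Δmimi granules 2 and 1 in the interaction of granules 2. Block and length correction together gave 1 in lysate (ple), 1 in Δmimi granules 1, 1 in Δmimi granules 2, 3 in granules 1 and 3 in granules 2 between the genotypes, and 1 in each interaction. Leaving out one preparation gave 0 to 1 in wild-type granules 1 and 0 to 1 in wild-type granules 2.

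Over all genes, lysate calls numbered 84 higher and 76 lower in Δmimi, against 532 and 394 with the block and 246 and 185 with DESeq2. Higher against lower calls in granules 1 over lysate were 258 and 195 in Δmimi and 469 and 327 in wild type, but 234 and 60 and 447 and 122 with length correction, and 539 and 844 and 710 and 920 with the block.

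Signs changed as follows. With RLE and DESeq2, Ddc of wild-type granules 1 was at 0.0068 and 0.0067, and Dop1R2 of Δmimi granules 1 at 0.016 and 0.016. Between the genotypes in granules 2, Ddc was at -0.00024 with RLE, and DopEcR at -0.00075 with the block and -0.0042 with block and length correction. With length correction, alone and with the block, Vmat gave -0.13 and -0.13 in wild-type granules 1, -0.13 and -0.13 in wild-type granules 2, and -0.031 and -0.034 in Δmimi granules 1. Dop1R1 gave -0.021 and -0.020 in wild-type granules 1 and -0.15 and -0.15 in wild-type granules 2, DopEcR gave -0.055 and -0.041 in Δmimi granules 1, and Dop1R2 gave -0.17 and -0.14 in Δmimi granules 2. Leaving out single libraries or preparations gave the following ranges. In lysate, ple spanned -0.26 to 1.13, Ddc -0.17 to 0.050 and DopEcR -0.48 to 0.13. In wild-type granules 1, Ddc spanned -0.055 to 0.038 and Vmat -0.021 to 0.100. In Δmimi granules, Dop1R2 spanned -0.13 to 0.16 in granules 1 and -0.22 to 0.27 in granules 2, and DopEcR -0.012 to 0.16 in granules 1. Between the genotypes, DopEcR spanned -0.45 to 0.070 in granules 1 and -0.34 to 0.25 in granules 2, and in granules 2 Ddc spanned -0.082 to 0.049, DAT -0.25 to 0.081 and Dop1R1 -0.27 to 0.14. Dop2R in the wash of wild type spanned -0.050 to 0.0099. For the interaction, Dop1R2 spanned -0.28 to 0.018 (granules 1) and -0.47 to 0.029 (granules 2), and DopEcR -0.15 to 0.018 (granules 1) and -0.0025 to 0.19 (granules 2).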
